A study of Mus musculus with 8 samples.

Results

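Smooth muscle contractile genes were described in mouse lungs on embryonic day E14.5. The group comprised 10 genes, Acta2, Myh11, Tagln, Cnn1, Actg2, Des, Myocd, Lmod1, Smtn and Mylk, out of 24583 genes measured on one-colour microarrays. Members were found by the symbol of their spots, which numbered 23, and the brightest spot of each gene, by its mean over the arrays, stood for the gene. The experimental embryos were Rosa26 rtTA/rtTA; Tg(tet(o)sFgfr2b)/+, in which doxycycline induces a secreted, soluble Fgfr2b that binds Fgfr2b ligands. The control embryos were littermates of the genotype Rosa26 rtTA/rtTA; +/+. Both groups thus carried the transactivator, which the Rosa26 locus drives in all tissues, and both were exposed to the same drug, since the pregnant females received 0.0015 mg of doxycycline per g of body weight by intraperitoneal injection 9 h before the lungs were taken. RNA came from the left lobe of each lung. The titles gave 4 experimental and 4 control arrays, numbered 1 to 4 in each group, and nothing in the sources used here said which litter or day a number stood for, so the p-values cover no more than the spread among these 8 arrays.

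Smooth muscle surrounds the airways and the larger vessels of the embryonic lung. Its cells contract when myosin light chain kinase phosphorylates the light chains of smooth muscle myosin, which then pulls on actin filaments. Most genes of this apparatus are switched on by serum response factor, which binds a DNA element known as the CArG box and is held there in an active state by its partners myocardin and the myocardin-related factors. In the developing mouse lung, airway smooth muscle forms from mesenchyme close to the epithelium, under Hedgehog, Wnt, Bmp and Fgf signals.

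The arrays were quantile-normalized by the authors, so each had a median log2 signal of 4.43. Across genes, which share their arrays, pairs of arrays correlated at 0.986 to 0.992. With 4 arrays a group, precision is limited by their number. The labels were first examined with Etv5, an Ets factor that Fgf10 induces in lung epithelium. Its log2 signal was 10.42, 10.43, 13.11 and 13.26 in the arrays labelled experimental 1 to 4, against 10.09, 10.57, 13.18 and 13.26 in those labelled control 1 to 4. Etv5 thus went with the number in the title and not with the labelled group, which is why the arrays are called labelled experimental or labelled control throughout. Etv5 is known to fall when Fgf signalling to the epithelium is blocked, and it was low in numbers 1 and 2 of both labelled groups. The labelled groups may therefore not be the lungs with and without the induced soluble receptor. Which of the 2 splits, by label or by number, follows that treatment was not settled from the labels, and neither set of differences below can be read as the response to it. Whether the spots of Fgfr2 lie in the part that the soluble receptor shares was not given, so Fgfr2 was no check. The members are described both ways below.

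Stretches of promoters are shown because CArG boxes and the MCAT element, a binding site of Tead factors, are the classic control elements of this gene class. RefSeq promoters (GRCm38.p6) were at hand for 6 of the 10 members, Acta2, Cnn1, Des, Lmod1, Mylk and Smtn, and the 250 bases before the annotated start were searched. Capitals mark a CArG box with at most 1 G or C in its A/T core, or the letters CATTCC of MCAT on either strand (GGAATG on the strand shown). No 2 of the marked elements overlap. The motifs were chosen with the sequences in view.
Acta2 (chr19:34255388-34255529, minus strand, 156 to 15 bases before the start): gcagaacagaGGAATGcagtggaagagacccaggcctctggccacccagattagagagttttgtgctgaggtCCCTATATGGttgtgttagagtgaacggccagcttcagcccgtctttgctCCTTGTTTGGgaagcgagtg
Lmod1 (chr1:135324673-135324698, plus strand): aagattccctGGAATGtcctcaagtt
Mylk (chr16:34784782-34784807, plus strand): cagttcagaaCATTCCctggtacgtg
Smtn (chr11:3539499-3539524, minus strand): gtttgtggcaCATTCCggactttggc
CArG boxes with an unbroken A/T core were found in 0 of the 6 promoters and in 1.47% of all 32851 RefSeq promoters. With 1 G or C allowed, the Acta2 promoter held 2, at 84 to 75 and at 34 to 25 bases before the start, whereas the other 5 held none in this window and 8.59% of all promoters held at least 1. The MCAT letters occurred in 4 of the 6 (Acta2, Lmod1, Mylk and Smtn), against 12.6% of all promoters. These matches are a description of the letters and do not show binding.

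By number, 7 of the 10 members had all of the arrays numbered 1 and 2 above all of those numbered 3 and 4, in both labelled groups together. They were Cnn1, Tagln, Myh11, Myocd, Actg2, Acta2 and Mylk, with mean differences of 0.31 to 0.66 on the log2 scale, or 1.24-fold to 1.58-fold. Over all genes, 5.17% had arrays 1 and 2 above arrays 3 and 4 without overlap and 5.39% had them below, and among the 12292 genes with a mean signal at or above the median the shares were 8.44% and 8.88%. With a mean difference of at least 0.3 required as well, all 7 members remained, beside 3.34% of all genes and 4.88% of the brighter genes. That limit lay just below the smallest of the 7 differences (0.31), so that all 7 remained is no further support. No p-value is attached to the number, since it was known from Etv5 and other genes of these data which numbers stand together. For labelled experimental against labelled control, 0 of the 10 members passed in limma at an adjusted p under 0.05, beside 0.0% of all genes, and 0 had an unadjusted p under 0.05.

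Among the actins of the thin filament, Acta2 encodes smooth muscle alpha-actin, the most widely used marker of smooth muscle and myofibroblasts. It had a log2 signal of 14.41, 14.54, 14.00 and 14.30 in experimental 1 to 4, against 14.71, 14.61, 14.13 and 14.24 in control 1 to 4. The lowest array of numbers 1 and 2 (experimental 1) lay 0.11 above the highest of numbers 3 and 4 (experimental 4), and the means were 14.57 ± 0.13 in numbers 1 and 2 and 14.17 ± 0.13 in numbers 3 and 4 (SD, n = 4 each), a difference of 0.40. Actg2, the gamma-actin of visceral smooth muscle, had 12.08, 11.96, 11.55 and 11.67 in experimental 1 to 4, against 12.36, 12.03, 11.71 and 11.76 in control 1 to 4. Here too the numbers were apart (12.10 ± 0.18 for numbers 1 and 2, 11.67 ± 0.09 for numbers 3 and 4), with a gap of 0.19 between the nearest arrays. Coding sequences of the actins are closely alike, and how far their spots share signal was not tested.

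Myh11, the heavy chain of smooth muscle myosin and the most specific marker of the lineage, had 10.11, 10.31, 9.50 and 9.72 in experimental 1 to 4, against 10.45, 10.27, 9.69 and 9.66 in control 1 to 4. Its 2 sets of numbers were 0.38 apart at their nearest arrays, with means of 10.29 ± 0.14 for numbers 1 and 2 and 9.65 ± 0.10 for numbers 3 and 4. Mylk, the kinase that starts contraction, had 12.96, 13.06, 12.77 and 12.64 in experimental 1 to 4, against 12.94, 13.17, 12.83 and 12.65 in control 1 to 4. Its difference by number was 0.31, the smallest of the 7, and amounted to 0.31 within the labelled experimental and 0.31 within the labelled control arrays.

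Tagln encodes transgelin (SM22), an actin-binding protein that appears early in smooth muscle differentiation. Tagln had 12.94, 13.06, 12.42 and 12.51 in experimental 1 to 4, against 13.40, 13.11, 12.54 and 12.48 in control 1 to 4. Numbers 3 and 4 were tightly grouped (12.49 ± 0.05), and all arrays of numbers 1 and 2 lay at least 0.39 above them (13.12 ± 0.19). For Cnn1, calponin, which restrains the myosin ATPase, the signal was 11.71, 12.03, 11.21 and 11.39 in experimental 1 to 4, against 12.38, 12.15, 11.55 and 11.49 in control 1 to 4. Cnn1 had the largest difference by number (0.66, 1.58-fold) and also the largest between the labelled groups (−0.31).

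Myocd, which encodes myocardin, the coactivator of serum response factor, had 8.52, 8.86, 8.20 and 8.08 in experimental 1 to 4, against 8.90, 8.82, 8.08 and 8.44 in control 1 to 4. Numbers 1 and 2 averaged 8.77 ± 0.17 and numbers 3 and 4 averaged 8.20 ± 0.17, a difference of 0.57 or 1.49-fold. The margin was narrow, since experimental 1 lay only 0.08 above control 4.

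**Figure D1:**
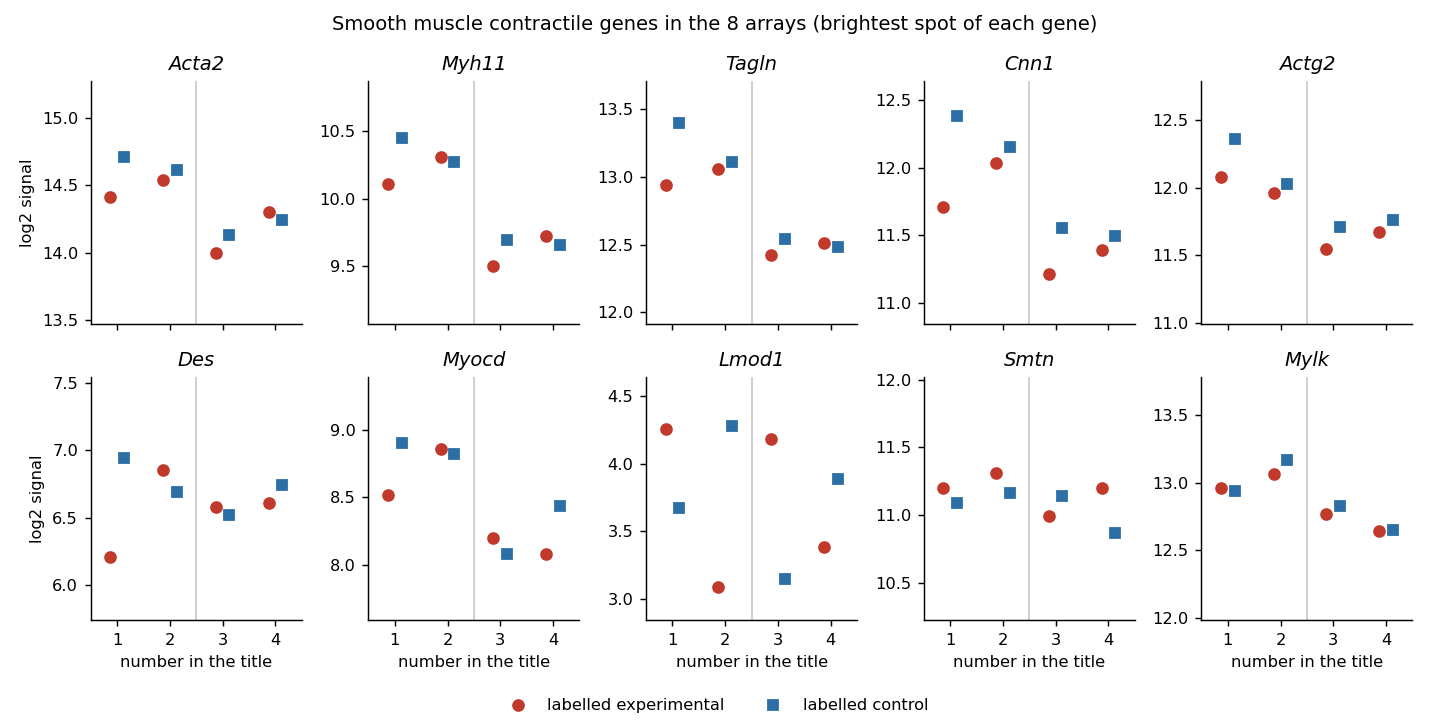
Log2 signal of the brightest spot of each of the 10 genes (vertical axes, each spanning the same number of log2 units) in the arrays labelled experimental (red circles) and control (blue squares), by the number in the title (horizontal axis). In 7 genes every array numbered 1 or 2 lies above every array numbered 3 or 4, whereas Des, Lmod1 and Smtn overlap.

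Des, Smtn and Lmod1 did not separate by number. Des, desmin, the intermediate filament of muscle, had 6.21, 6.85, 6.58 and 6.61 in experimental 1 to 4, against 6.94, 6.69, 6.52 and 6.74 in control 1 to 4, so that experimental 1 was the lowest of all arrays and control 1 the highest, and the means of numbers 1 and 2 (6.67) and of numbers 3 and 4 (6.61) differed by 0.06. Smtn, smoothelin, a protein of contractile smooth muscle, had 11.20, 11.31, 10.99 and 11.20 in experimental 1 to 4, against 11.09, 11.16, 11.14 and 10.87 in control 1 to 4. Its mean was higher by 0.14 in numbers 1 and 2 and the arrays overlapped. Lmod1, leiomodin, which nucleates actin filaments, had a mean of 3.74, the only member below the median of all genes (5.79), and ran between 3.09 and 4.28 with no order by group or number. Its spot gave little information at this signal.

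The difference by number was also taken within each labelled group. For the 7 members it was positive in both, whereas Des (−0.06) and Lmod1 (−0.11) were lower in numbers 1 and 2 within the labelled experimental arrays. The difference of numbers 1 and 2 from numbers 3 and 4 was 0.32 in labelled experimental and 0.48 in labelled control arrays for Acta2, 0.60 and 0.68 for Myh11, 0.53 and 0.74 for Tagln, and 0.57 and 0.74 for Cnn1. For Actg2 it was 0.41 and 0.45, and for Myocd 0.55 and 0.59. Without overlap were 8 of the 10 members within the labelled experimental arrays, beside 20.1% of all genes, and 7 within the labelled control arrays, beside 19.6%, since only 2 arrays stand against 2 there. Smtn, positive in both labelled groups (0.17 and 0.12), was without overlap only within the labelled experimental arrays. Its nearest arrays there, experimental 1 and experimental 4, were both 11.20 when rounded. The median over the 10 members was 0.37 within the labelled experimental and 0.46 within the labelled control arrays, and 0.41 over all 8, beside a median of 0.00 over all genes. When 1 array was left out at a time the median remained between 0.35 (without control 1) and 0.45 (without experimental 2).

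The design asks whether the genes respond to 9 h of ligand capture, which the labels answer only if they hold, and Etv5 went against them. As labelled, the members differed between the labelled groups by −0.31 to 0.11 on the log2 scale. The differences were −0.31 ± 0.25 for Cnn1, −0.16 ± 0.16 for Des, −0.15 ± 0.18 for Actg2, −0.15 ± 0.24 for Tagln and −0.14 ± 0.23 for Myocd (SE, limma). Acta2 differed by −0.11 (95% confidence interval −0.51 to 0.29), Myh11 by −0.11 (−0.67 to 0.45), Mylk by −0.04 (−0.38 to 0.30), Lmod1 by −0.02 (−0.77 to 0.72) and Smtn by 0.11 (−0.16 to 0.37). Thus 9 members were lower and 1 was higher in sign, with a median of −0.13, while 48.8% of all genes were lower in sign and the median of all genes was 0.00. Of the 10, 0 passed in limma (every adjusted p = 1.0), 0 with the replicate number as a block (every adjusted p = 0.999) and 0 in the unpaired test without moderation, and at an unadjusted p under 0.05 the count was again 0 in each of the 3. Over all genes, 0 of 24583 passed in each of these fits, and 876 (3.56%), 1182 (4.81%) and 788 (3.21%) had an unadjusted p under 0.05 in limma, in the blocked fit and in the test without moderation. The groups overlapped in all 10 members, while 0.944% of genes had the labelled experimental arrays all below and 0.952% all above the labelled control arrays.

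With the number as a block, which takes up the differences between numbers, 7 intervals narrowed and those of Des, Lmod1 and Smtn widened. For Cnn1 the interval was −0.64 to 0.03, for Tagln −0.45 to 0.15, for Actg2 −0.38 to 0.08, for Myh11 −0.40 to 0.18 and for Acta2 −0.37 to 0.15, each including 0. Within single numbers, Cnn1 was lower in the labelled experimental array by 0.67, 0.12, 0.34 and 0.10 for numbers 1 to 4, and Actg2 by 0.28, 0.07, 0.17 and 0.09. These were the 2 members lower within all 4 numbers, as were 5.76% of all genes. Tagln, Acta2 and Mylk were lower within 3 numbers. Tagln and Acta2 were slightly higher within number 4 (by 0.03 and 0.06), and Mylk within number 1 (by 0.02). The members' median within numbers 1 to 4 was −0.32, −0.06, −0.12 and −0.05, with 7, 6, 7 and 6 of the 10 lower in sign. Of all genes, 51.3%, 48.4%, 50.7% and 46.7% were lower in sign within numbers 1 to 4. The largest of the members' medians came from the pair numbered 1. Without control 1 the median over the members was −0.02 in place of −0.13, with Myh11 at 0.03 and Tagln at 0.02.

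**Figure D2:**
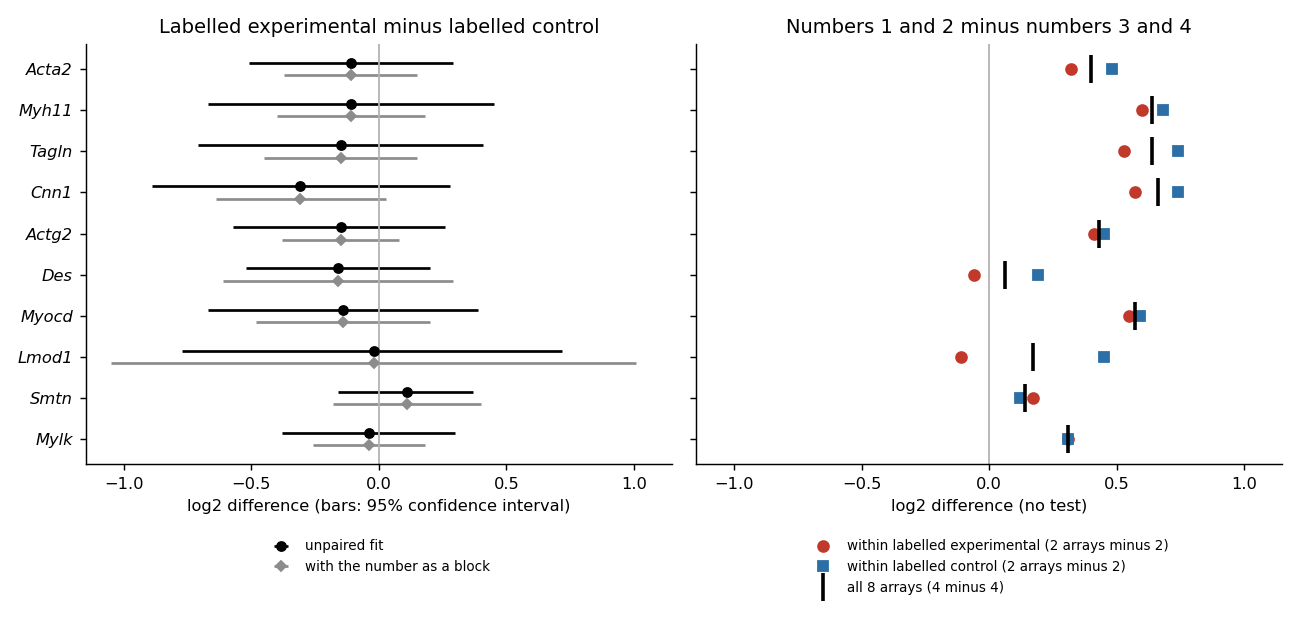
Left, log2 difference of the arrays labelled experimental minus those labelled control (4 each) for the 10 genes, with 95% confidence intervals of the unpaired fit (black) and of the fit with the number as a block (grey). Right, log2 difference of numbers 1 and 2 minus numbers 3 and 4 over all 8 arrays (black bars) and within each labelled group (red circles and blue squares). All intervals on the left include 0, and on the right 7 genes lie between 0.31 and 0.66 over all arrays.

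Several members had more than 1 spot, which allows the pattern to be read on separate probes. Of the 23 spots, 18 had a mean signal at or above the median of all genes. All 18 were higher in the mean of numbers 1 and 2 (by 0.06 to 1.03), and 12 of them did not overlap between the numbers. Spots of the same gene are not separate evidence, and the share over all spots was not taken. Among genes at or above the median signal, 8.44% had numbers 1 and 2 all above. The 5 dimmer spots overlapped, with differences of −0.13 to 0.48. The 3 brighter spots of Myh11 differed by 0.64, 0.86 and 1.03 from the brightest to the dimmest. The 3 brighter spots of Acta2 lay at a mean of 14.37, 12.94 and 8.48 with differences of 0.40, 0.25 and 0.62, the last of which overlapped (experimental 4 at 8.51 against experimental 1 at 8.35). The dimmer spot of Cnn1 differed by 0.76, close to the 0.66 of the brighter one. The 4 brighter spots of Mylk differed by 0.31, 0.25, 0.24 and 0.51, of which the second and the third overlapped. Both spots of Smtn overlapped, with differences of 0.14 and 0.23.

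**Figure D3:**
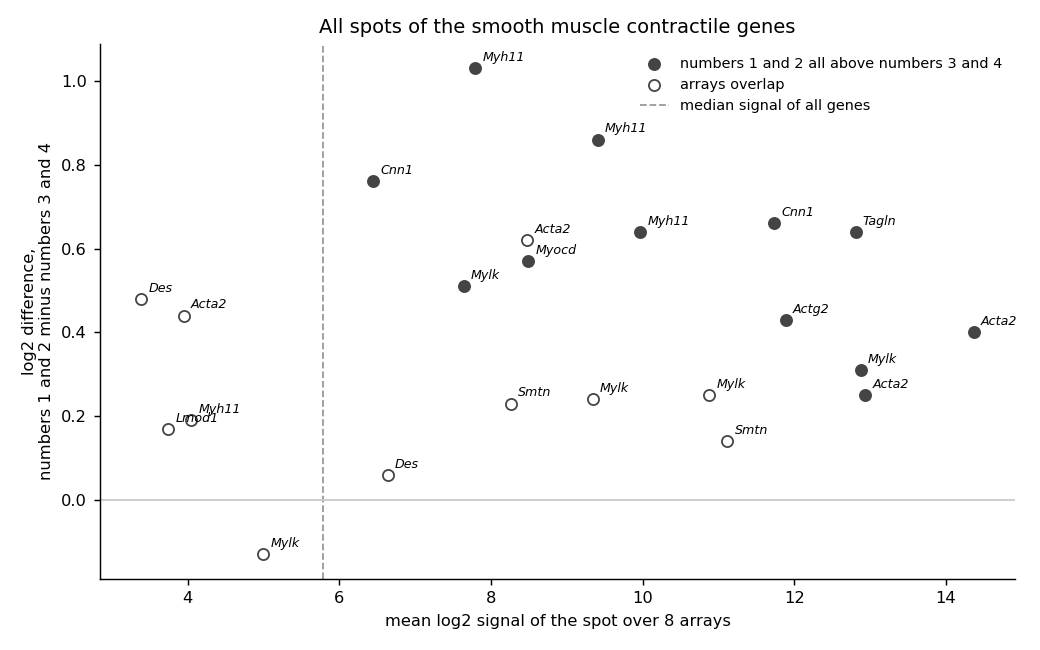
Log2 difference of numbers 1 and 2 minus numbers 3 and 4 (vertical axis) against the mean log2 signal (horizontal axis) for the 23 spots of the 10 genes. Filled points are spots whose arrays numbered 1 and 2 all lie above those numbered 3 and 4, and open points overlap. The 12 filled points all lie to the right of the dashed line at 5.79, the median signal of all genes.

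Other genes of the contractile apparatus were described from a list of 30, of which 28 were measured. In this list 11 had numbers 1 and 2 above numbers 3 and 4 without overlap and 1 had them below. Among all genes at or above the median signal, 8.44% were above and 8.88% below in this way. Differences by number in the list had a median of 0.18. The largest were Pgm5 (0.69), a protein of muscle adherens junctions, Myl9 (0.52), the regulatory light chain that Mylk phosphorylates, and Itga8 (0.49), an integrin subunit of smooth muscle and mesenchyme. Myl9 had 14.91, 14.94, 14.47 and 14.41 in experimental 1 to 4, against 15.17, 15.02, 14.49 and 14.61 in control 1 to 4, so that all arrays of numbers 1 and 2 lay above those of numbers 3 and 4. Synm, which encodes synemin, a partner of desmin, was opposite, at 7.79, 7.73, 9.13 and 8.73 in experimental 1 to 4, against 7.79, 7.80, 8.84 and 8.69 in control 1 to 4. Its difference by number was −1.07. In the labelled comparison 0 of the 28 passed in limma, 19 being lower and 9 higher in sign with a median of −0.04. The smallest p belonged to Pcp4l1 (−0.66 ± 0.29, SE), Pdlim3 (−0.29 ± 0.14), Ppp1r12b (−0.24 ± 0.19) and Actn1 (0.13 ± 0.11), with an adjusted p = 1.0 each.

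Regulators of the program were found on both sides. Of 21 regulators, 4 were above and 3 below in numbers 1 and 2 without overlap, with a median of 0.12. Among all genes at or above the median signal, the shares were 8.44% above and 8.88% below. Fhl2, a cofactor of serum response factor, differed by 0.54, Prkg1, the cGMP-dependent kinase of smooth muscle, by 0.54 and Klf4, a factor that represses contractile genes in cultured smooth muscle cells, by 0.37, each without overlap, while Gata6 differed by −0.41. Srf itself was level by number (−0.02), and the myocardin-related factors Mrtfa and Mrtfb differed by 0.17 and 0.16. These last 3 were singled out for their role after their values were seen. Csrp1 (−0.33 ± 0.12), Heyl (0.22 ± 0.11), Jag1 (−0.18 ± 0.13) and Notch3 (0.13 ± 0.13) had the smallest p between the labelled groups (SE, adjusted p = 1.0 each), and 0 of the 21 passed in limma.

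A further list held 17 genes of signalling to airway smooth muscle, namely ligands, receptors, effectors, targets and cell markers. In numbers 1 and 2, 2 were above and 7 below without overlap, with a median of −0.33. Of all genes at or above the median signal, 8.44% were above and 8.88% below in this way. The epithelial Wnt7b had means of 8.42 in numbers 1 and 2 and 9.97 in numbers 3 and 4, Fgf9 of the epithelium and mesothelium 6.77 and 7.91, and the Hedgehog effector Gli1 10.28 and 11.15. Fgf10, the mesenchymal ligand of Fgfr2b, was the other way, at 9.67 in numbers 1 and 2 and 9.09 in numbers 3 and 4. Like Etv5, these 4 genes separated by number in both labelled groups. They were named because their differences by number were the largest of the list, so their separation is no further support. In limma 0 of the 17 passed between the labelled groups.

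Some markers of other cells of a lung lobe also differed by number, and their part in the members' difference was not tested. As the share beside the counts below, 8.44% of genes at or above the median signal were above and 8.88% below without overlap. In bulk lobes, more smooth muscle cells and more RNA per cell cannot be told apart. The mean of the 10 lung mesenchyme markers was 11.74 to 11.99 in numbers 1 and 2 and 11.67 to 11.70 in numbers 3 and 4, with 4 genes above without overlap, among them Dcn (0.83) and Tcf21 (0.49). Relative to this list on each array, the members' median was 0.20, against 0.41 without this scaling. Pan-epithelial markers had a mean of 9.85 to 10.10 in numbers 1 and 2 and 10.18 to 10.32 in numbers 3 and 4, with 3 of 10 below and 0 above without overlap. The 10 pericyte and mural markers had a median difference of 0.19 and 0 without overlap, the endothelial markers 0.10 with 1 of 10 above, the 7 measured mesothelial markers 0.00 with 0, and the 6 measured neuronal markers 0.07 with 1 above and 1 below.

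Cardiac and skeletal muscle share genes with smooth muscle, Des and the actins among them, and cardiac muscle also shares Myocd. By number, 2 of 15 cardiac markers were above and 1 below without overlap. Among all genes at or above the median signal, 8.44% were above and 8.88% below. The cardiac list's mean ranged from 7.03 to 7.41 in numbers 1 and 2 and from 7.06 to 7.60 in numbers 3 and 4. In the labelled comparison 11 of the 15 were lower in sign with a median of −0.44, led by Myh6 (−0.52 ± 0.11), Myl7 (−0.46 ± 0.11), Tnnt2 (−0.54 ± 0.14) and Myl4 (−0.50 ± 0.14), none of which passed (adjusted p = 1.0 in limma). The list's mean was 7.03 to 7.39 in the labelled experimental and 7.28 to 7.60 in the labelled control arrays, so cardiac markers moved in the same sense as the members' small labelled difference, and their part in it was not tested. Of the 12 skeletal markers 4 were above the median signal, the myogenic factor Myf5 was dimmest at 2.72, and the list's mean was 4.72 to 5.33 in the labelled experimental and 5.02 to 5.14 in the labelled control arrays.

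**Figure D4:**
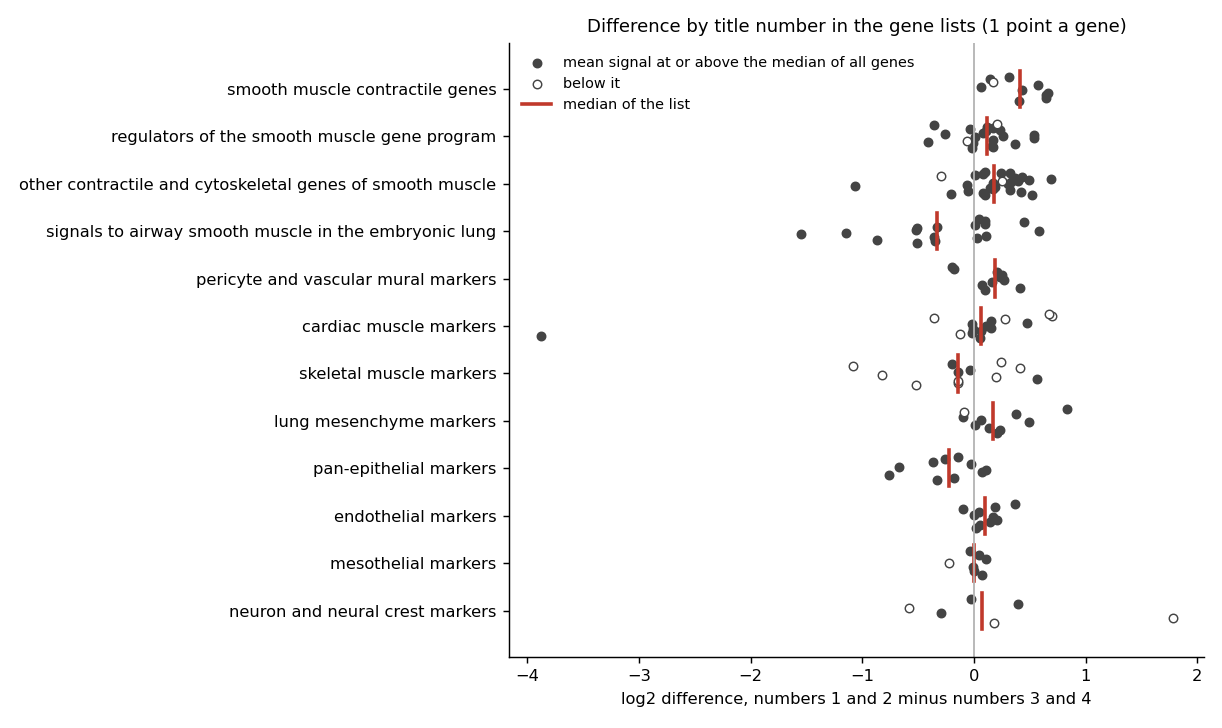
Log2 difference of numbers 1 and 2 minus numbers 3 and 4 (horizontal axis) for each gene of the 10 smooth muscle contractile genes and of 11 further lists, with the median of each list as a red bar. Open points are genes dimmer than the median gene. The contractile genes have a median of 0.41 and lie entirely above 0, and the pan-epithelial markers have a median of −0.22.

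The genes whose pattern over the 8 arrays was most like the mean of the members were taken from 1578 genes with at least the median signal and an SD of 0.3 or more. Likeness was measured by Pearson's r over the 8 arrays, which fall into 2 sets by number, and r includes that split. The mean centred signal of the members was 0.08, 0.14, −0.22 and −0.21 in experimental 1 to 4, against 0.32, 0.26, −0.23 and −0.14 in control 1 to 4. Closest was Ccn4, a matricellular protein (r = 0.984), with 10.04, 10.20, 9.68 and 9.63 in experimental 1 to 4, against 10.47, 10.33, 9.78 and 9.75 in control 1 to 4. It shared with the members the high values of control 1 and control 2. Then came the kinase genes Dapk2 (0.961) and Sphk1 (0.959), Thbs2 (0.958), which encodes a thrombospondin, Dcn (0.951), decorin, Fhl2 (0.948), Shisa3 (0.945) and Ndrg1 (0.945). Their differences by number were 0.54 for Fhl2, 0.55 for Ccn4, 0.82 for Ndrg1, 0.83 for Dcn, 0.92 for Thbs2, 0.96 for Shisa3, 1.20 for Dapk2 and 1.23 for Sphk1.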

How the data were processed

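The deposited values are log2 signals that the authors had made from Cy3 spot signals of an Agilent mouse array. Per the methods, image analysis used Mapix, background was corrected with limma's normexp on negative control spots (an added 1), and quantile normalization followed on the log scale. Base 2 was read from the highest value of 16.00. Of 62976 spots per array, 2 with a missing value were left out. The platform annotation named 43941 spots with 1 symbol each, and 19035 had none. Symbols were updated through unversioned RefSeq accessions (33708 matched, 1424 changed, GRCm38.p6 table). Each of 24583 genes was represented by its brightest spot. The study first averaged replicate spots of a probe, which was not done here because the table used does not name which spots share a probe.

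Labelled experimental minus labelled control was fitted with lmFit and eBayes (limma 3.58.1, R 4.3.3), unpaired and two-sided, with Benjamini-Hochberg adjustment over all genes and no filter. The methods name an unpaired test on a moderated statistic, as this is, and a Student's test without moderation on the same values was an alternative. The fit was tested on simulated data. To see whether numbers pair the arrays, each array's group mean was subtracted, and the remainders of both arrays of a number correlated at 0.109, 0.146, 0.124 and 0.117 across genes, all above 0.1, and 8 of 8 arrays correlated best with their own number in the other group, so a fit with the number as a block was an alternative. Numbers 1 and 2 against numbers 3 and 4 were described without a test. "Without overlap" means that every array of one side lies above every array of the other. Named genes were the 10 members, in each list up to 4 with the smallest p and up to 4 with the largest difference by number at or above the median signal, up to 8 genes most like the members' mean, and Etv5. The members and lists were chosen with earlier results of these data known. Alternatives were the mean of all spots, a filter on dim genes, the block, the test without moderation, an intensity trend, and omission of single arrays, with other centring added after the data were seen.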

Additional observations from a re-analysis of the deposited data

How the results depend on the processing

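Between the labelled groups 0 members and 0 genes of all passed in every alternative run (mean of all spots, genes at or above the median signal only, replicate block, the unpaired test without moderation, an intensity trend, each array left out). The block thus changed no call. Of 129 single differences of members under these alternatives, 120 had the sign given in the text and 9 did not, all 9 with 1 array left out and none past the threshold. With single arrays left out the ranges were −0.24 to 0.03 for Myh11, −0.28 to 0.02 for Tagln, −0.22 to 0.19 for Lmod1 and −0.12 to 0.05 for Mylk, and the members' median was −0.22 to −0.02. That median was −0.18 within numbers 1 and 2 and −0.04 within numbers 3 and 4. With the mean of all spots Myh11 differed by −0.39 between the labelled groups, in place of −0.11. Cnn1 and Des moved the other way, to −0.17 from −0.31 and to −0.03 from −0.16. By number, the members' median was 0.43 with the mean of all spots and 0.42 with arrays centred on the median of genes at or above the median signal. Relative to the lung mesenchyme list it was 0.20, since that list was itself higher in numbers 1 and 2 by 0.21 in the mean. The count of members without overlap by number was 7 in the mean of all spots, 8 within the labelled experimental and 7 within the labelled control arrays (2 against 2 arrays, where 20.1% and 19.6% of all genes did not overlap in this direction), and 7 with any single array left out. Both centrings, and the omission of single arrays for this count, were chosen after seeing the data. Without scanner output, detection above background was not called, which limits Lmod1 most.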

Other observations

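Outside the smooth muscle lists, the striated muscle genes held 1 gene that differed by number far more than any member. Myh7, the slow cardiac myosin heavy chain, had a log2 signal of 3.82, 5.30, 8.92 and 8.69 in experimental 1 to 4, against 5.15, 5.58, 9.08 and 8.66 in control 1 to 4, a difference of −3.88 by number. In numbers 1 and 2 its signal lay below the median of all genes (5.79), which limits how far the size of this difference can be read. Myh7 was lower in numbers 1 and 2, opposite to the 7 smooth muscle genes without overlap. Myh6, the other cardiac heavy chain, was level by number (0.05). The striated actins ran with the smooth muscle actins. Actc1, the cardiac actin, had 11.73, 11.62, 11.10 and 11.47 in experimental 1 to 4, against 11.92, 11.85, 11.36 and 11.32 in control 1 to 4, and Acta1, the skeletal actin, had 8.32, 8.52, 7.77 and 8.12 in experimental 1 to 4, against 8.65, 8.59, 8.14 and 7.81 in control 1 to 4. Both lay above in numbers 1 and 2 without overlap (by 0.47 and 0.56), and whether their spots share signal with Acta2 or Actg2 was not tested.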
